A study of Homo sapiens with 12 samples.

Results

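The genes described here are 10 FOXO-induced target genes, named KLHL24, YPEL3, TXNIP, CITED2, SESN1, SESN3, PIK3IP1, CCNG2, C13orf15 and TP53INP1. They were chosen by name from a list of known targets, with earlier results of these data known. All 10 were found among the 23228 genes of the count tables. C13orf15 is the older symbol of RGCC. Polyadenylated RNA came from SUM149PT, an established human line grown from an inflammatory breast cancer, so every group is 1 line in culture. In the combination group, cells were kept in 5 µM tazemetostat from day -5 and also given 5 µM ipatasertib on day 0. The ipatasertib group had 5 µM ipatasertib from day 0 after culture in DMSO, and the tazemetostat group had 5 µM tazemetostat from day -5 alone. The DMSO group received neither inhibitor. In all 4 groups, 250000 cells per 6 cm plate were in medium with 2% serum from day 0, and RNA was taken 24 h later. Tazemetostat exposure was thus longer than ipatasertib exposure wherever both were given. Each group had 3 libraries, A, B and C. Nothing in the labels says that these came from separate cultures. The p-values below reflect variation among these libraries, which may be technical.

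FOXO1, FOXO3 and FOXO4 are forkhead transcription factors that sit downstream of insulin and growth factor signalling. When PI3K is active, AKT phosphorylates them and they are held in the cytoplasm. When AKT is inhibited they enter the nucleus, bind a core sequence of the form GTAAACA and induce genes. Some of these slow the cell cycle, restrain nutrient uptake or dampen the same pathway, while others, such as the insulin receptor gene INSR, encode receptors. Ipatasertib inhibits the AKT kinases. Tazemetostat inhibits EZH2, the Polycomb enzyme that methylates histone H3 at silenced genes.

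Start-site windows were examined for forkhead core sequences, because FOXO factors act on their targets by binding such sequences. The windows, from RefSeq on GRCh38.p14, ran from 250 bases before the annotated start to 50 after it, and were matched for 9 of the 10 genes, with 15 windows in all; TP53INP1 was not matched. The forkhead core GTAAACA, read on both strands, occurred in the windows of 3 of these 9 genes, YPEL3, TXNIP and PIK3IP1. It occurred in 3.42% of all 35116 windows and for 4.19% of the 27305 genes that have one. CAAAACA, a related forkhead sequence read on both strands, occurred for 1 of the 9 genes, KLHL24, and for 6.05% of all genes with a window. The stretches around these 4 matches are shown 5′ to 3′ on the strand of the gene, with the match in capitals. A match is a description of letters and not a measured binding site.

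TXNIP, chr1:145996660-145996759, minus strand, match beginning 124 bases before the start:
TXNIP: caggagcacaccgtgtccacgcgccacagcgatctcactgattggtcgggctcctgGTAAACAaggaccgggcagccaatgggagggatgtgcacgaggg
YPEL3, chr16:30096184-30096283, minus strand, match beginning at base 1 of the transcript:
YPEL3: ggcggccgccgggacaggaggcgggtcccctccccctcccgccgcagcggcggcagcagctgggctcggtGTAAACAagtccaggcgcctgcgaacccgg
PIK3IP1, chr22:31292459-31292558, minus strand, match beginning at base 17 of the transcript, as TGTTTAC, the reverse complement of GTAAACA:
PIK3IP1: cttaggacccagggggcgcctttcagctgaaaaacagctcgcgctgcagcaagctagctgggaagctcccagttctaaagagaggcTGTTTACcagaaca
KLHL24, chr3:183635523-183635622, plus strand, match beginning 32 bases before the start, as TGTTTTG, the reverse complement of CAAAACA:
KLHL24: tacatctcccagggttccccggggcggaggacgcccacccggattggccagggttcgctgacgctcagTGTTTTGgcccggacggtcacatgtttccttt

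In YPEL3 and PIK3IP1 the core GTAAACA lay just after the annotated start and in TXNIP before it, and the CAAAACA of KLHL24 also lay before it. The windows of CITED2 and CCNG2 held neither forkhead sequence. Each of these 2 windows held CACGTG, the E-box bound by MYC and related factors, which reads the same on both strands and occurred for 8.77% of all genes with a window. The remaining 3 matched genes, SESN1, SESN3 and C13orf15, held none of the 3 sequences in these windows.

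The libraries held between 22355242 and 49970540 counts assigned to genes. Levels are given in CPM, the usual unit of counts scaled by library size, here with TMM factors, in the order A, B and C, and are compared between groups for a gene and never between genes. Of the 10 genes, 9 had at least 10 counts, scaled to the median library, in all 12 libraries. SESN3 reached that in 6 libraries only, the 3 of the combination and the 3 of tazemetostat, and so entered the test through the groups where it is high. Within groups, 2 libraries were unlike the others, tazemetostat A and combination B. Their counts differed from those of the group's other libraries with a chi-square per degree of freedom of 18.1 to 19.8 and of 14.8 to 25.3, against 2.64 to 6.70 for the other 8 within-group pairs. Results that rest on them are therefore also given without them. The strand setting of the counting is not given in the sources used here, and SESN1, SESN3, YPEL3 and PIK3IP1 each overlap an annotated antisense gene, whose reads could not be told apart from theirs. In bulk RNA, fewer cells making a transcript and less of it per cell cannot be told apart.

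The labelled cell type was checked with its markers. The summed level of 8 epithelial markers was 2789 to 3135 CPM in combination libraries, 3095 to 3473 CPM in ipatasertib libraries and 4213 to 4777 CPM in tazemetostat libraries, against 4943 to 5164 CPM in DMSO libraries. Of these 8 markers, 7 fell in the combination, 7 with ipatasertib and 5 with tazemetostat, and none rose. Over all genes tested, 34.5%, 28.7% and 20.9% were lower in these comparisons with DMSO. The keratin genes KRT5, KRT14 and KRT17 fell most in the combination, with log2 changes of -3.53, -3.13 and -2.62, while EPCAM, an epithelial adhesion protein, lay between 288 and 401 CPM over all 12 libraries and did not pass the test. The summed level of 13 markers of other cell types was 263 to 300.3 CPM in combination libraries, 446 to 462 CPM in ipatasertib libraries and 308 to 345 CPM in tazemetostat libraries, against 495 to 563 CPM in DMSO libraries. CD68, a lysosomal glycoprotein, made up most of it at 210 to 403 CPM, while the T cell marker CD3E and the liver marker ALB had at most 3 counts in any library. Single markers moved differently from the sum: of the 10 tested, 3 rose and 6 fell in the combination, 6 rose and 3 fell with ipatasertib, and 6 fell with tazemetostat. The shares of all genes that were higher were 36.5%, 25.4% and 25.1%, beside the lower shares given above. The share of reads in lines that name no gene was 35.7% to 38.0% in combination libraries, 37.4% to 38.6% in ipatasertib libraries and 29.8% to 30.7% in tazemetostat libraries, against 31.0% to 32.9% in DMSO libraries. The part of these differences between groups in the results below was not tested.

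With both inhibitors, 9 of the 10 genes rose against DMSO and none fell. SESN1 was the exception, and the median log2 change over the 10 genes was 2.74 against 0.02 over all 14874 genes tested. Of all genes tested, 36.5% were higher in this comparison. With ipatasertib alone 8 of the 10 rose, with a median log2 change of 1.82 against -0.01 over all genes, of which 25.4% were higher. With tazemetostat alone 7 of the 10 rose, with a median of 0.40 against 0.02 over all genes, of which 25.1% were higher. Over the 9 genes that had the minimum in every library, which leaves out SESN3, 8 rose in the combination, 8 with ipatasertib and 6 with tazemetostat. Calls are from edgeR's quasi-likelihood F-test on all 12 libraries, with p-values adjusted over all genes by the Benjamini-Hochberg method and called below 0.05. These 3 comparisons share the DMSO libraries, so their values for a gene are not independent. Because the genes were chosen with earlier results known, the contrasts with all genes are descriptions, and enrichment was not tested. Changes are relative to TMM scaling; scaling by total counts alone moved the median of all genes up by 0.14 in the combination and by 0.12 with ipatasertib.

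**Figure D1:**
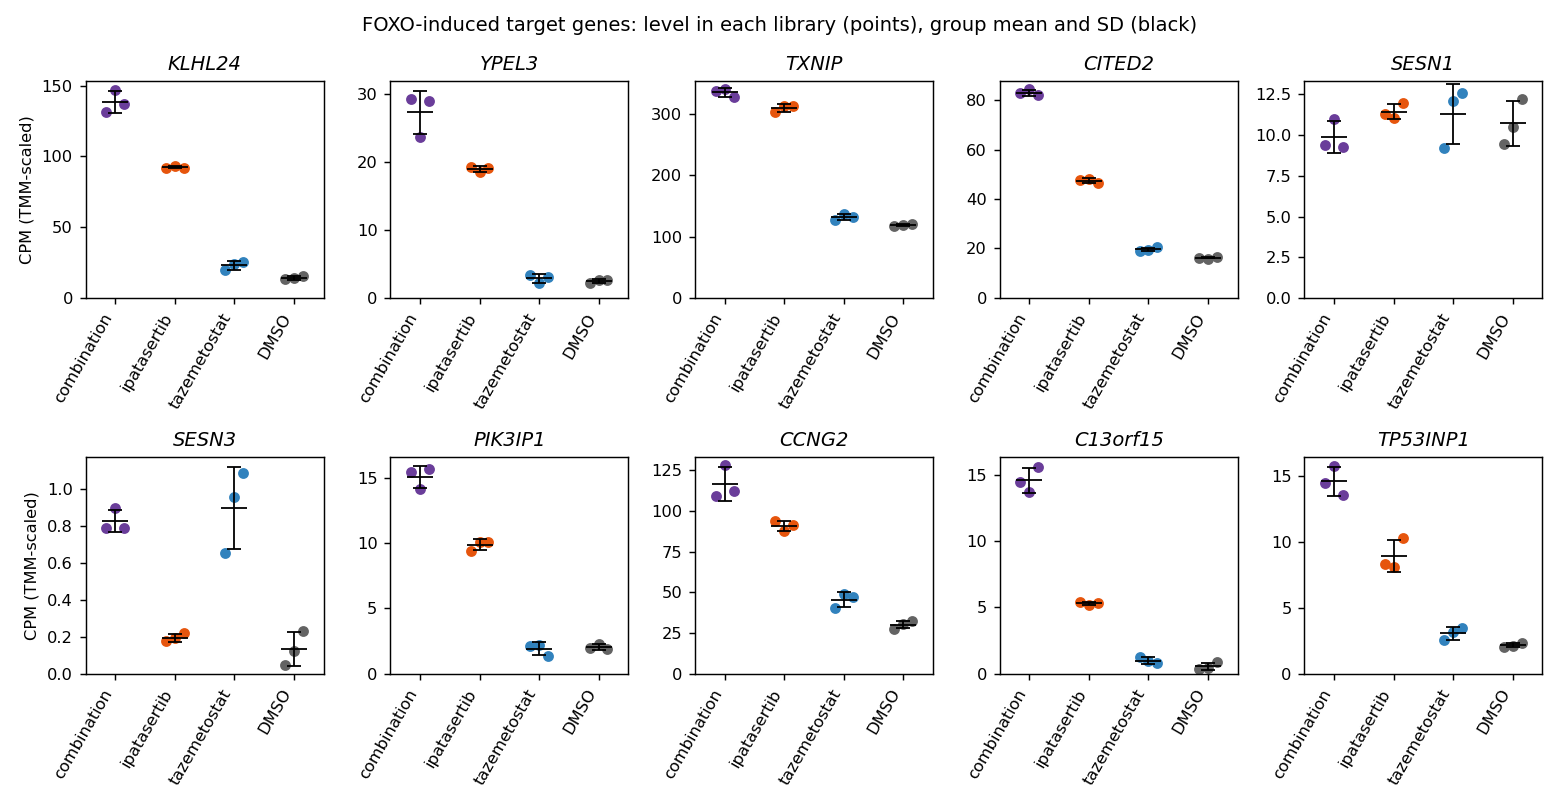
Level of each of the 10 genes in each library, in CPM after TMM scaling on axes that start at 0, with the combination, ipatasertib, tazemetostat and DMSO groups from left to right and black bars for the group mean and SD of 3 libraries. In 8 of the 10 genes every combination library lies above every other library; SESN1 shows no separation from DMSO, and SESN3 is high in the 6 libraries that had tazemetostat.

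The first set of genes acts back on PI3K, mTORC1 or nutrient uptake. PIK3IP1 encodes a membrane protein that binds the PI3K catalytic subunit and inhibits it. It had 15.4, 14.1 and 15.7 CPM in combination libraries, 9.41, 10.1 and 10.1 CPM in ipatasertib libraries and 2.14, 2.23 and 1.37 CPM in tazemetostat libraries, against 1.97, 2.29 and 1.90 CPM in DMSO libraries. The ipatasertib and combination libraries were apart from DMSO and from each other, while tazemetostat and DMSO libraries overlapped. The log2 change against DMSO was 2.88 in the combination (SE 0.14, edgeR adjusted p = 3.89e-13) and 2.26 with ipatasertib (SE 0.14, edgeR adjusted p = 1.22e-10). With tazemetostat it was -0.11, with a 95% interval of -0.46 to 0.23, and did not pass the test.

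TXNIP encodes an alpha-arrestin that binds thioredoxin and limits glucose uptake. It had 337, 342 and 328 CPM in combination libraries, 303, 314 and 313 CPM in ipatasertib libraries and 127, 137 and 132 CPM in tazemetostat libraries, against 118, 119 and 121 CPM in DMSO libraries. No group overlapped another, but the step between tazemetostat and DMSO was small beside that to either group with ipatasertib. The change was 1.49 in the combination (SE 0.05, edgeR adjusted p = 5.19e-15), 1.38 with ipatasertib (SE 0.05, edgeR adjusted p = 9.34e-14) and 0.14 with tazemetostat (SE 0.05, edgeR adjusted p = 0.0296), all on the log2 scale against DMSO. The tazemetostat call did not hold up: it was lost with DESeq2 size factors (adjusted p = 0.0521), without the filter on low counts (adjusted p = 0.0816) and when any single library other than tazemetostat A or combination B was left out (adjusted p between 0.0515 and 0.235). The combination exceeded ipatasertib by 0.11 on the log2 scale, which did not pass the test (edgeR adjusted p = 0.0843) and passed only under scaling by total counts (adjusted p = 0.0406).

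The sestrins SESN1 and SESN3 encode stress proteins that restrain mTORC1, and they differed from each other. SESN1 had 9.38, 11.0 and 9.29 CPM in combination libraries, 11.3, 11.1 and 11.95 CPM in ipatasertib libraries and 9.20, 12.1 and 12.6 CPM in tazemetostat libraries, against 9.47, 10.5 and 12.2 CPM in DMSO libraries. Each treated group overlapped DMSO. The log2 change against DMSO was -0.11 in the combination, 0.10 with ipatasertib and 0.08 with tazemetostat, none past the test, with 95% intervals that stayed between -0.37 and 0.35. Every combination library was below every ipatasertib library, yet the difference of -0.21 did not pass (edgeR adjusted p = 0.180). Leaving out tazemetostat A and combination B gave -0.30 (edgeR adjusted p = 0.0140), but this removed the highest combination library of SESN1.

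SESN3 was a low-count gene. It had 22, 24 and 29 counts in combination libraries, 7, 5 and 5 in ipatasertib libraries and 28, 41 and 54 in tazemetostat libraries, against 2, 4 and 7 in DMSO libraries. The libraries that had tazemetostat were all above those that did not, and ipatasertib overlapped DMSO. After scaling, summed counts were 6.71 times those of DMSO in the combination (95% counting interval 3.70 to 13.2) and 7.42 times with tazemetostat (4.18 to 14.3). With ipatasertib the ratio was 1.56 (0.714 to 3.496). Since SESN3 entered the fit only through the groups where it is high, these values are a description and no p is given for them.

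The next set is linked to the cell cycle. CCNG2 encodes cyclin G2, an atypical cyclin that accompanies cell cycle arrest. It had 109, 128 and 113 CPM in combination libraries, 93.7, 87.6 and 91.4 CPM in ipatasertib libraries and 40.2, 49.0 and 47.1 CPM in tazemetostat libraries, against 27.8, 30.4 and 32.5 CPM in DMSO libraries. The 4 groups did not overlap, with the combination highest, then ipatasertib, then tazemetostat, and DMSO lowest. Against DMSO the log2 change was 1.95 in the combination (SE 0.08, edgeR adjusted p = 8.73e-14), 1.59 with ipatasertib (SE 0.08, edgeR adjusted p = 1.01e-11) and 0.59 with tazemetostat (SE 0.08, edgeR adjusted p = 9.64e-06).

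YPEL3 encodes a small zinc-binding protein of the yippee family that has been linked to growth arrest. It had 29.3, 23.6 and 28.9 CPM in combination libraries, 19.2, 18.4 and 19.1 CPM in ipatasertib libraries and 3.38, 2.16 and 3.11 CPM in tazemetostat libraries, against 2.18, 2.65 and 2.58 CPM in DMSO libraries. Both groups with ipatasertib were apart from the rest, while tazemetostat and DMSO overlapped. The log2 change was 3.48 in the combination (SE 0.13, edgeR adjusted p = 1.69e-14) and 2.95 with ipatasertib (SE 0.14, edgeR adjusted p = 1.59e-12). With tazemetostat it was 0.24 and did not pass (edgeR adjusted p = 0.230), although without tazemetostat B it was 0.37 and passed (adjusted p = 0.0488).

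C13orf15 encodes RGCC, a regulator of the cell cycle that binds the mitotic kinase CDK1. It had 14.4, 13.7 and 15.6 CPM in combination libraries, 5.39, 5.21 and 5.30 CPM in ipatasertib libraries and 1.26, 0.931 and 0.783 CPM in tazemetostat libraries, against 0.375, 0.391 and 0.883 CPM in DMSO libraries. Its change in the combination was the largest of the 10 genes, 27.5-fold or 4.78 on the log2 scale (SE 0.19, edgeR adjusted p = 3.66e-14). With ipatasertib the log2 change was 3.32 (SE 0.21, edgeR adjusted p = 2.10e-10). With tazemetostat it was 0.89 (SE 0.27, edgeR adjusted p = 0.0112), but DMSO C lay above tazemetostat C, and the call was lost without DMSO A (adjusted p = 0.108), without DMSO B (adjusted p = 0.0733) or without tazemetostat A (adjusted p = 0.0675). DMSO libraries had 16, 13 and 27 counts of it.

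The last set acts in transcription and protein turnover. KLHL24 encodes a substrate adaptor of cullin 3 ubiquitin ligases, known in skin for the turnover of keratin 14. It had 132, 147 and 137 CPM in combination libraries, 92.0, 93.3 and 92.1 CPM in ipatasertib libraries and 19.4, 24.0 and 25.6 CPM in tazemetostat libraries, against 13.1, 13.8 and 15.7 CPM in DMSO libraries. The 4 groups did not overlap. The log2 change against DMSO was 3.29 in the combination (SE 0.09, edgeR adjusted p = 1.60e-16), 2.71 with ipatasertib (SE 0.09, edgeR adjusted p = 2.18e-14) and 0.70 with tazemetostat (SE 0.09, edgeR adjusted p = 4.01e-06).

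CITED2 encodes a coregulator that binds CBP and p300 and competes with hypoxia-inducible factor. It had 82.8, 84.3 and 81.9 CPM in combination libraries, 47.8, 48.1 and 46.4 CPM in ipatasertib libraries and 19.1, 19.3 and 20.4 CPM in tazemetostat libraries, against 16.3, 15.9 and 16.4 CPM in DMSO libraries. Libraries of a group lay close together, and the 4 groups were apart. The log2 change was 2.35 in the combination (SE 0.06, edgeR adjusted p = 8.26e-17), 1.55 with ipatasertib (SE 0.06, edgeR adjusted p = 2.18e-13) and 0.27 with tazemetostat (SE 0.06, edgeR adjusted p = 0.00152).

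TP53INP1 encodes a stress protein that takes part in p53 signalling and autophagy. It had 14.5, 15.8 and 13.6 CPM in combination libraries, 8.35, 8.06 and 10.3 CPM in ipatasertib libraries and 2.54, 3.19 and 3.47 CPM in tazemetostat libraries, against 2.02, 2.11 and 2.32 CPM in DMSO libraries. Here too the 4 groups did not overlap. The log2 change was 2.77 in the combination (SE 0.13, edgeR adjusted p = 4.80e-13), 2.05 with ipatasertib (SE 0.14, edgeR adjusted p = 3.87e-10) and 0.53 with tazemetostat (SE 0.15, edgeR adjusted p = 0.00763). The tazemetostat change was 0.39 without tazemetostat C and was then not called (adjusted p = 0.0639).

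**Figure D2:**
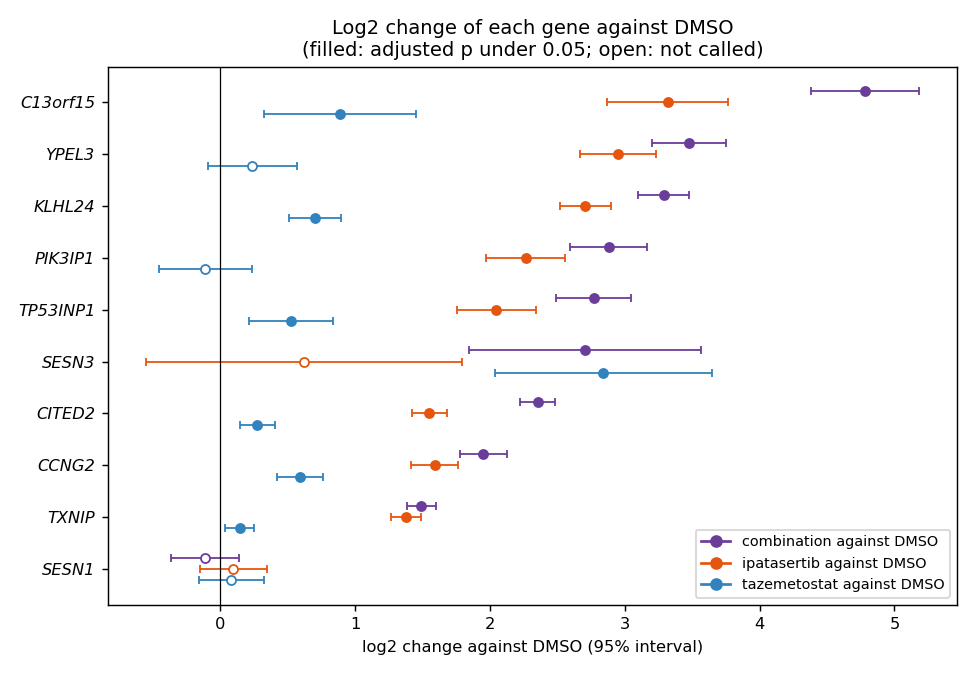
Log2 change of each gene against DMSO in the combination, with ipatasertib and with tazemetostat, with 95% intervals from the edgeR fit; filled points passed an adjusted p of 0.05 and open points did not. C13orf15 reached 4.78 in the combination, SESN1 stayed near 0 in all 3, and SESN3 is the gene whose tazemetostat change, 2.84, exceeded its ipatasertib change, 0.62. The SESN3 points, filled or open, are a description only, since SESN3 entered the fit through the groups where it is high.

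Ordered by level, 7 of the 10 genes ran from the combination through ipatasertib and tazemetostat down to DMSO. These were KLHL24, YPEL3, TXNIP, CITED2, CCNG2, C13orf15 and TP53INP1. In that order, the combination and ipatasertib did not differ past the test for TXNIP, and tazemetostat and DMSO did not for YPEL3. For TXNIP, C13orf15 and TP53INP1 the call between tazemetostat and DMSO was lost in some fits without a single library. The share of all genes with this order is not given here. PIK3IP1 followed the same order except that tazemetostat and DMSO, which did not differ past the test, changed places. SESN3 was highest with tazemetostat, followed by the combination, ipatasertib and DMSO, which is a description only for this low-count gene. For SESN1 no neighbouring groups differed past the test.

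Adding tazemetostat to ipatasertib raised 8 of the 10 genes above ipatasertib alone, where 21.8% of all genes tested were higher. The median log2 difference was 0.60 over the 10 genes and 0.01 over all genes. It was 1.46 for C13orf15 (SE 0.14, edgeR adjusted p = 5.60e-08), 0.81 for CITED2 (SE 0.06, edgeR adjusted p = 1.12e-09) and 0.72 for TP53INP1 (SE 0.11, edgeR adjusted p = 4.08e-05). It was 0.62 for PIK3IP1, 0.58 for KLHL24, 0.53 for YPEL3 and 0.36 for CCNG2, all past the test, and the eighth was SESN3, which entered the fit through its high groups. Adding ipatasertib to tazemetostat also raised 8 of the 10, with a median of 2.16 against 0.00 over all genes, of which 29.8% were higher. Here the 2 sestrins were the exceptions. Compared directly, ipatasertib exceeded tazemetostat in 8 of the 10 genes, where 24.6% of all genes were higher and 31.7% lower, with a median of 1.40 against -0.04 over all genes; SESN3 was the 1 gene called lower, with the same limit.

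Of the 10 genes, 7 were higher in the combination than with either inhibitor alone, as were 12.6% of all genes tested; TXNIP, SESN1 and SESN3 were not. In 8 of the 10, the lowest combination library was above every library of the other 3 groups, which held for 14.3% of all genes tested. For TXNIP the libraries were apart in this way although the difference from ipatasertib did not pass the test. Leaving out tazemetostat A and combination B, SESN1 was also lower in the combination than with tazemetostat, at -0.36 (edgeR adjusted p = 0.00234). That fit removed the gene's lowest tazemetostat library and its highest combination library.

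Whether the inhibitors together did more than the sum of their separate log2 changes was tested as an interaction. CITED2 exceeded the sum by 0.53 on the log2 scale (SE 0.09, edgeR adjusted p = 0.00116). Its combination level was 5.12-fold that of DMSO, where the separate changes add up to 3.54-fold. PIK3IP1 exceeded the sum by 0.73 (SE 0.20, edgeR adjusted p = 0.04998), at 7.36-fold where the sum gives 4.45-fold. These were 2 of the 10 genes, where 1.87% of all genes tested exceeded the sum. For the other 8 the departure ran between -0.76 for SESN3 and 0.57 for C13orf15 and did not pass. The SESN3 value is a description only. The median over the 10 genes was 0.08 against 0.00 over all genes.

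**Figure D3:**
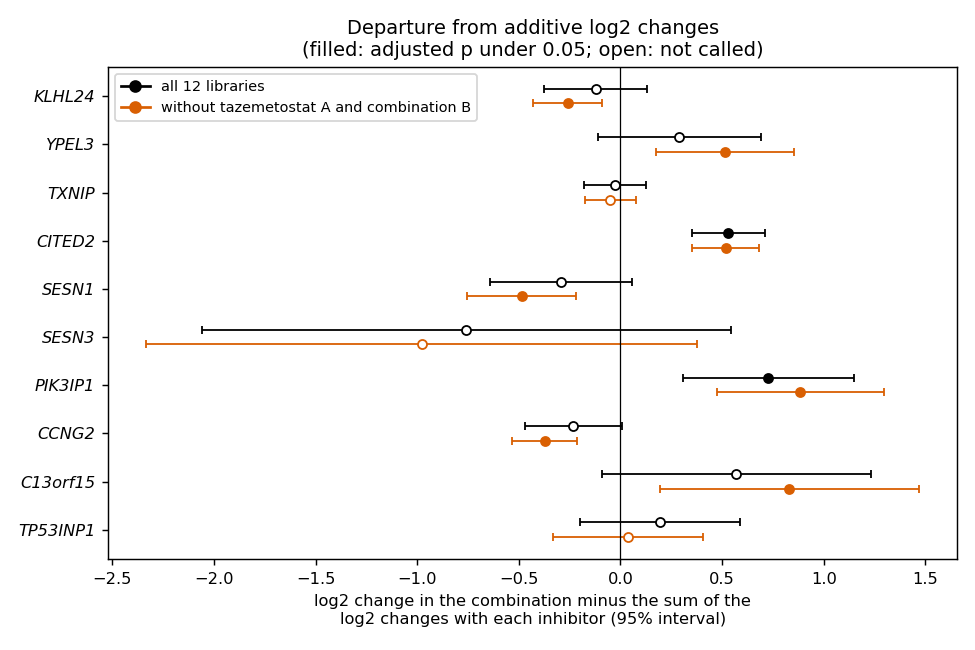
Departure of each gene's combination change from the added changes of ipatasertib and tazemetostat, on the log2 scale with 95% intervals, for all 12 libraries and for the 10 left without tazemetostat A and combination B; filled points passed an adjusted p of 0.05. CITED2 and PIK3IP1 are filled in both sets, at 0.53 and 0.52 and at 0.73 and 0.89, and 5 more genes are filled in the smaller set.

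The interaction calls depended on the libraries that stood apart. Without tazemetostat A and combination B, 7 of the 10 genes departed from the sum, as did 31.8% of all genes tested. With less spread among the libraries left, a given departure passes more easily. In that fit 17.1% of all genes exceeded the sum and 14.7% fell short of it. YPEL3 at 0.51, CITED2 at 0.52, PIK3IP1 at 0.89 and C13orf15 at 0.83 then exceeded it, and KLHL24 at -0.26, SESN1 at -0.49 and CCNG2 at -0.37 fell short. The departures themselves had also moved. With all 12 libraries YPEL3 was at 0.29, C13orf15 at 0.57, KLHL24 at -0.12, SESN1 at -0.29 and CCNG2 at -0.23. The PIK3IP1 call with all 12 libraries was close to the threshold. It was lost without any 1 of 9 libraries, namely the DMSO and ipatasertib libraries, tazemetostat C, combination A and combination C, with adjusted p between 0.0606 and 0.161 and a departure between 0.53 and 0.77. The CITED2 call held in every such fit, with a departure between 0.52 and 0.57. CCNG2 was called at -0.29 without combination B (adjusted p = 0.0439).

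The paralogs of these genes did not all move alike. Their log2 changes against DMSO ran from -0.42 to 4.06 in the combination and from -0.92 to 2.82 with ipatasertib. With tazemetostat they ran from -0.19 to 2.08, and for ipatasertib against tazemetostat from -3.01 to 2.31. Paralogs of CITED2 and TP53INP1 are included in these ranges and in the counts below, but are not described singly. Of 12 paralogs, 8 rose and 1 fell in the combination, 7 rose with ipatasertib and 4 rose with tazemetostat, and none of the others passed the test in these comparisons. Of all genes tested, 36.5%, 25.4% and 25.1% were higher in these comparisons, so the tazemetostat count is near the share over all genes. All 5 yippee genes, YPEL3 included, rose in the combination and with ipatasertib, and 1 of the 5, YPEL5, rose with tazemetostat. YPEL2 had 7.66, 9.75 and 7.82 CPM in combination libraries and 3.49, 3.35 and 3.83 CPM in ipatasertib libraries, against 0.422, 0.571 and 0.523 CPM in DMSO libraries. These libraries were apart, and its log2 change was 4.06 in the combination (SE 0.17, edgeR adjusted p = 1.00e-13) and 2.82 with ipatasertib (SE 0.19, edgeR adjusted p = 5.14e-10).

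YPEL5 had 68.7, 76.7 and 71.0 CPM in combination libraries, 50.2, 51.2 and 49.0 CPM in ipatasertib libraries and 19.3, 23.1 and 22.5 CPM in tazemetostat libraries, against 12.99, 15.2 and 14.3 CPM in DMSO libraries. It rose by 2.35 in the combination (SE 0.08), by 1.83 with ipatasertib (SE 0.08) and by 0.61 with tazemetostat (SE 0.08). YPEL4 rose by 2.98 and YPEL1 by 2.72 in the combination, and by 1.40 and 2.56 with ipatasertib. The sestrin SESN2, named after its values were seen, was the paralog that fell in the combination, with a log2 change of -0.42 (SE 0.09, edgeR adjusted p = 0.000438), so the sestrins did not move as 1 family. Among relatives of TXNIP and CCNG2, also named after their values were seen, ARRDC2 and ARRDC3 rose in the combination by 0.68 and 0.88 (SE 0.09 each), whereas ARRDC4 changed by -0.01 and CCNG1 by 0.06, neither past the test.

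**Figure D4:**
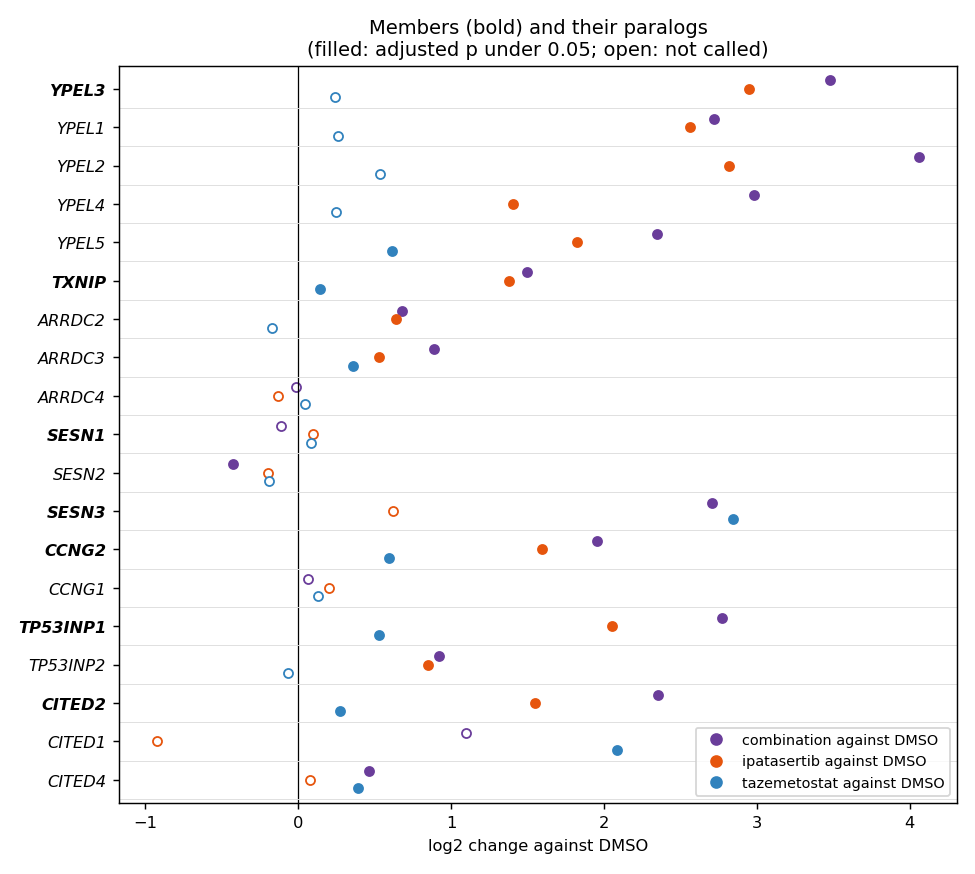
Log2 change against DMSO in the combination, with ipatasertib and with tazemetostat for 7 of the 10 genes, in bold, and their 12 paralogs, grouped by family; filled points passed an adjusted p of 0.05 in edgeR. All 5 yippee genes lie to the right in the combination, at 2.35 to 4.06, whereas SESN1 and SESN2 lie at -0.11 and -0.42 and SESN3 at 2.71. The SESN3 points, filled or open, are a description only, since SESN3 entered the fit through the groups where it is high.

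The factors themselves were measured next. FOXO4 had 33.6, 23.8 and 32.2 CPM in combination libraries, 15.6, 14.9 and 16.8 CPM in ipatasertib libraries and 6.85, 7.65 and 7.13 CPM in tazemetostat libraries, against 5.32, 4.54 and 4.58 CPM in DMSO libraries. The 4 groups did not overlap, with log2 changes of 2.63, 1.70 and 0.57 against DMSO in the combination, with ipatasertib and with tazemetostat (SE 0.12, 0.12 and 0.13, all past the test). FOXO1 had 74.3, 74.7 and 72.4 CPM in combination libraries, 55.0, 54.0 and 57.2 CPM in ipatasertib libraries and 49.5, 56.4 and 53.9 CPM in tazemetostat libraries, against 29.5, 32.2 and 33.9 CPM in DMSO libraries. Every treated library was above DMSO, and the log2 changes of 1.21, 0.80 and 0.74 all passed the test. FOXO3 rose in the combination, by 0.30 (SE 0.06, edgeR adjusted p = 0.000178), and at 0.04 with ipatasertib and 0.07 with tazemetostat did not pass. FOXO6 was not found among the genes of the count tables and could not be tested. These are transcript levels; the location and phosphorylation of the proteins were not measured.

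CCND1, which encodes cyclin D1 and is repressed by FOXO factors, had 222, 196 and 209 CPM in combination libraries, 162, 159 and 157 CPM in ipatasertib libraries and 534, 532 and 523 CPM in tazemetostat libraries, against 396, 393 and 377 CPM in DMSO libraries. It fell in the combination by 0.90 (SE 0.05, edgeR adjusted p = 1.83e-11) and with ipatasertib by 1.28 (SE 0.06, edgeR adjusted p = 6.33e-13) on the log2 scale, and rose with tazemetostat by 0.45 (SE 0.05, edgeR adjusted p = 1.64e-06). Unlike KLHL24, CCNG2 or FOXO4, it thus had its highest level with tazemetostat. CCND2, the cyclin D2 gene, had at most 7 counts in any library and was not tested.

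A further list of 29 FOXO-induced genes, none of them among the 10, gave 25 that passed the filter. This list too was chosen with earlier results of these data known. PCK1 passed only through the groups with tazemetostat, where it is high, and is kept in the counts and medians below as a description. In the combination 21 of these 25 rose and 2 fell, with ipatasertib 20 rose and 2 fell, and with tazemetostat 12 rose and 2 fell. Among all genes tested the shares that were higher were 36.5%, 25.4% and 25.1%. The median log2 change of the 25 was 0.92 in the combination, 0.70 with ipatasertib and 0.16 with tazemetostat, against 0.02, -0.01 and 0.02 over all genes. TRIM63, SEPP1, G6PC and IGFBP1, targets known mainly from muscle and liver, had at most 2 counts in any library. PDK4, a kinase that shuts off pyruvate dehydrogenase, had 37.9, 43.6 and 41.7 CPM in combination libraries, 14.6, 16.3 and 15.6 CPM in ipatasertib libraries and 2.84, 3.47 and 3.05 CPM in tazemetostat libraries, against 1.90, 1.86 and 2.03 CPM in DMSO libraries. The groups were apart, with a log2 change of 4.41 in the combination (SE 0.10), and PDK4 exceeded the sum of the separate changes by 0.71 (SE 0.15, edgeR adjusted p = 0.0110).

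TNFSF10, which encodes the death ligand TRAIL, rose by 3.77 in the combination (SE 0.22) and by 2.83 with ipatasertib (SE 0.25), while its tazemetostat change of 0.59 did not pass. INSR, the insulin receptor, rose by 2.43 in the combination (SE 0.10), by 1.13 with ipatasertib (SE 0.11) and by 1.75 with tazemetostat (SE 0.10). PCK1, a gluconeogenic enzyme, had 32 counts summed over combination libraries, 0 over ipatasertib libraries and 41 over tazemetostat libraries, against 2 over DMSO libraries. The scaled ratio to DMSO was 18.6 in the combination, with a 95% counting interval of 4.75 to 160, and 16.1 with tazemetostat, with an interval of 4.18 to 137. The 2 genes that fell in the combination were named after their values were seen. GADD45A, a stress gene, fell by 1.20 in the combination and by 1.28 with ipatasertib. FBXO32, a ubiquitin ligase gene, fell by 0.48 in the combination and by 1.76 with tazemetostat, and rose by 0.17 with ipatasertib (SE 0.06, edgeR adjusted p = 0.0339).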

How the data were processed

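Raw counts per gene were deposited by the authors for 12 libraries of polyadenylated RNA. The submitters' processing notes name hg19, STAR, SAMtools, HTSeq and DESeq2; their versions, the annotation and the strandedness are not given here. The 5 lines that name no gene held 29.8% to 38.6% of a library and were left out. A second table deposited by the authors holds normalised signal; each library's values, for the 23202 rows matched by symbol, equalled its counts over 1 size factor within a relative tolerance of 1e-06, and it was not tested.

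Counts were analysed in R 4.3.3 with edgeR 4.0.16 (filterByExpr, TMM, quasi-likelihood F-test, 1 coefficient per group, no block). The filter left 14874 genes, with a common biological coefficient of variation of 0.0645. The 7 comparisons were the 6 pairs of groups and the interaction. Standard errors are approximate, the log2 change over the root of F. A count of 0 allows up to 3 counts, 0.0600 to 0.134 CPM; intervals and limits cover counting error only. The code was tested on simulated data with 200 changed genes. Alternatives were DESeq2 1.42.0 (size factors, test), total-count scaling, no filter, only the groups compared, a replicate block, each library left out, and both libraries that stood apart left out.

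The genes and lists were chosen with earlier results of these data known. Named genes are the 10, the FOXO factors and D cyclins, the 4 called genes of each other list with the largest change in the combination, and for each of the 10 the 2 genes with the most similar changes; the other paralogs, GADD45A, FBXO32 and cell type markers named were chosen after their values were seen. Same-lettered libraries were not paired, because the labels do not say that a letter marks a shared culture or day. Of 18 same-lettered pairs, 2 had a correlation of deviations over 0.1. Both were between the combination and tazemetostat, at 0.30 for A and 0.21 for B, while C was at -0.04.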

Additional observations from a re-analysis of the deposited data

Results flagged for a closer look

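CITED2 was marked because its response to ipatasertib differed between cells kept in tazemetostat and cells kept in DMSO. The log2 change with ipatasertib was 2.08 under tazemetostat and 1.55 under DMSO, a difference of 0.53 (SE 0.09, edgeR adjusted p = 0.00116).

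PIK3IP1 was marked for the same reason, with a log2 change of 2.99 under tazemetostat and 2.26 under DMSO, a difference of 0.73 (SE 0.20, edgeR adjusted p = 0.04998). Its call was lost in 9 of the 12 fits that left out 1 library.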

How the results depend on the processing

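Over all alternatives, 1273 values of member changes kept their direction and side of the threshold, 27 lost a call, 11 gained one and 8 changed sign. With 1 library left out, the number of the 10 genes called stayed at 9 for the combination and 8 for ipatasertib, and ran from 5 to 7 for tazemetostat, all against DMSO. For the interaction it ran from 1 to 3 with 1 library left out, against 2 with all libraries; it was 1 under DESeq2 size factors and under total counts alone, and 7 without tazemetostat A and combination B. With a replicate block the numbers called were those without it, 9, 8 and 7 against DMSO and 2 for the interaction, although all genes called in the interaction numbered 753 with the block and 539 without; the cause was not tested. None of the values that changed sign had passed the test. SESN1 in the combination against DMSO was 0.021 under total counts alone, and SESN1 with ipatasertib against tazemetostat was -0.066 without tazemetostat A and combination B. With 1 library left out, SESN1 with tazemetostat against DMSO ran from -0.035 to 0.18, PIK3IP1 with tazemetostat against DMSO from -0.27 to 0.065, SESN3 in the combination against tazemetostat from -0.29 to 0.049, SESN1 with ipatasertib against tazemetostat from -0.068 to 0.14, and the TXNIP interaction from -0.043 to 0.0084. Over all genes the interaction called 2443 genes without combination B and 1046 without tazemetostat A. Depth limits SESN3, and to a lesser degree C13orf15, whose DMSO libraries had at most 27 counts.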

Other observations

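A list of 20 p53-induced genes went in both directions. In the combination 9 rose and 7 fell, with ipatasertib 6 rose and 6 fell, and with tazemetostat 7 rose and 2 fell. Over all genes tested 36.5% were higher and 34.5% lower in the combination, 25.4% and 28.7% with ipatasertib, and 25.1% and 20.9% with tazemetostat, so in the combination and with ipatasertib the list's counts lie near those of all genes. The median log2 change over the list was 0.11 in the combination, -0.11 with ipatasertib and 0.10 with tazemetostat. GDF15, which encodes a stress-induced cytokine, had 11.4, 9.60 and 11.7 CPM in combination libraries, 0.828, 0.989 and 0.913 CPM in ipatasertib libraries and 2.31, 2.09 and 1.69 CPM in tazemetostat libraries, against 0.164, 0.271 and 0.196 CPM in DMSO libraries. The groups were apart, with a log2 change of 5.70 in the combination (SE 0.20). GDF15 had 22 counts summed over DMSO libraries, each of them below the filter's minimum. It thus entered the test through the treated groups, where it is higher, and its change is a description without a p. BBC3, the gene of the cell death protein PUMA, which the list of FOXO-induced genes also holds, rose by 1.38 and AEN, a nuclease gene, fell by 1.38 in the combination. BTG2, an antiproliferative gene, rose by 1.09 in the combination and by 1.23 with tazemetostat, while its ipatasertib change of -0.18 did not pass.

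The genes whose 3 log2 changes against DMSO were most like those of each member were taken from all other genes tested, by the root mean square difference. For YPEL3 these were TNFSF10 at 0.27 and its own paralog YPEL2 at 0.39. For C13orf15 they were N4BP2L1 at 0.21 and PDK4 at 0.30, for KLHL24 GATS at 0.16 and LOC100506874 at 0.23, and for TP53INP1 C17orf103 at 0.03 and RDH10 at 0.07. For CITED2 they were NCRNA00277 at 0.08 and ARHGAP4 at 0.09, for CCNG2 LOC100506810 at 0.05 and SPRED3 at 0.06, and for TXNIP FREM2 at 0.05 and FAM116B at 0.06. For PIK3IP1 they were SLITRK6 at 0.08 and STON1 at 0.22, for SESN3 ASRGL1 at 0.07 and PDX1 at 0.08, and for SESN1 ELMOD2 at 0.01 and SMARCA2 at 0.02. Among the 45 pairs of members, CITED2 and CCNG2 were most alike at 0.30, and SESN1 and C13orf15 least alike at 3.42. These changes share the DMSO libraries.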
